A study of Mus musculus with 37 samples.

Results

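Genes whose proteins sit in or at the epithelial cell membrane, 5 in all, were followed through 3 experiments on mouse jejunal organoids. They were Mucl3, a mucin-like transmembrane protein also known as Dpcr1, Vsig1, an adhesion protein of the immunoglobulin superfamily, and the transmembrane mucins Muc1, Muc4 and Muc13. They were chosen by symbol, with their measured fold changes under vasoactive intestinal peptide (VIP) in whole organoids already known, so the values of that comparison are a description and carry no test. All 5 had a row among the 27407 genes of the whole organoids and among the 27547 genes of the irradiation cohort. Only Muc4 and Muc13 had one among the 20500 genes of the first experiment on sorted cells, whose rows each held at least 1 transcript.

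Transmembrane mucins are long, heavily O-glycosylated proteins that form the glycocalyx on the apical surface of intestinal epithelial cells and carry short cytoplasmic tails that can signal. Vsig1 belongs to the CTX family of junctional adhesion proteins and is best known from the glandular epithelium of the stomach. VIP is a neuropeptide of the enteric nervous system. Its receptors couple to adenylyl cyclase, and the cyclic AMP they raise activates transcription factors of the CREB family, which bind the cyclic AMP response element (CRE).

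The whole organoids were grown from jejunal crypts of C57Bl6/J mice and were left untreated (3 mice) or given 100 nM VIP for 72 h (4 mice). Lgr5-EGFP+ cells, the stem and progenitor fraction, were sorted from organoids of Lgr5-EGFP-IRES-CreERT2 reporter mice, in which EGFP is read from the Lgr5 locus. The first sorted experiment held untreated cultures and cultures given 100 nM VIP for 72 h, from 4 mice. The second, called here the irradiation cohort, held 4 cultures of each of 4 mice: untreated, VIP, 6 Gy of X-rays, and 6 Gy with VIP, where VIP was 100 nM for 48 h. The study drew organoids from adult mice of both sexes. The cultures of a mouse came from its own organoid line and are compared within that mouse. Whole-organoid mouse 4 had no untreated culture and adds nothing to the fold changes. Expression is given as CPM, the unique molecular identifiers (UMIs, counted transcripts) of a gene scaled to the total of its culture. Cultures held 3722716 to 6330404 UMIs in the whole organoids, 575242 to 1104126 in the first sorted experiment and 1075715 to 1876729 in the irradiation cohort. The sorted cells had summed levels of 12 stem cell markers of 3055 to 7440 CPM against 2368 to 4871 CPM in the whole organoids, ranges that overlapped, and summed levels of 13 absorptive enterocyte markers of 796 to 3050 CPM against 10918 to 14888 CPM. Secretory markers overlapped as well. Goblet cell markers summed to 3181 to 10340 CPM sorted against 5589 to 9536 CPM in whole organoids, and Paneth cell markers to 4147 to 28648 CPM against 13619 to 24200 CPM. Lgr5 mRNA itself was at 12.2 to 56.2 CPM in the sorted cells and at 42.4 to 116 CPM in the whole organoids.

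The 250 bases upstream of the Mucl3 and Vsig1 transcription starts are shown because these genes had the highest ratios between VIP-treated and untreated organoids. All 5 genes matched a RefSeq promoter on GRCm38.p6. Capitals mark a CRE, spelled TGACGTCA, which was the only match among CRE and AP-1 (TGANTCA) in these windows. Mucl3 lies on the minus strand of chromosome 17 and Vsig1 on the plus strand of chromosome X, and both sequences read 5′ to 3′ toward the start.
Mucl3, chr17:35643696-35643945: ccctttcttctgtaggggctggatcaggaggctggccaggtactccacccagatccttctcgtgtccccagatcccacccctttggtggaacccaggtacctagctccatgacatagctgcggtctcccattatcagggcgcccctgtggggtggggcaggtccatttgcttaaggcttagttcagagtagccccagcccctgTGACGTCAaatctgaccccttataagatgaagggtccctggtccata
Vsig1, chrX:140907358-140907607: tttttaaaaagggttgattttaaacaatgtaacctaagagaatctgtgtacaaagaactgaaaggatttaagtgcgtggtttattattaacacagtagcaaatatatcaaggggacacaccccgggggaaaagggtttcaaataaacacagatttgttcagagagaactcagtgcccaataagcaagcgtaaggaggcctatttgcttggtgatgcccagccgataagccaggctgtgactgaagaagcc
The CRE of Mucl3 began 47 bases before the start. Searched on both strands, the CRE stood in 508 of 32851 mouse promoter windows of this length (1.55%), and the Vsig1 window held neither the CRE nor its core TGACG, which stood in 17.8%. Among the other members, both Muc13 windows held 1 AP-1 match each, 61 and 179 bases before their starts, as did 6.75% of all windows. The single windows of Muc1 and Muc4 held none of these letters. Windows of Gkn1, Gkn2 and Anxa10, gastric genes that also rose with VIP and are described below, held no CRE. Tff1 and Psca, gastric genes that rose as well, had no window among those searched. Gkn1 held 1 AP-1 match and 1 TGACG, Anxa10 held 2 AP-1 matches, and Gkn2 held none of these letters. Whether any of these motifs acts in the response to VIP was not tested.

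Mucl3, on chromosome 17 of GRCm38 from 35635752 to 35643695, gave few UMIs in untreated organoids and many after VIP. The libraries of untreated mouse 1 held 3 and 9 UMIs, those of mouse 2 held 5 and 5, and the single library of mouse 3 held 3. After VIP the libraries held 91 and 74 in mouse 1, 69 and 78 in mouse 2, 296 and 5 in mouse 3, and 13 and 31 in mouse 4. Every VIP-treated culture was above every untreated culture, with 8.03 to 47.5 CPM against 0.806 to 2.08 CPM. The share of all genes separated in this way was not counted. In this comparison 4.82% of the 12727 genes tested passed an adjusted p of 0.05 in edgeR, from which nothing is read for members chosen with it known. Over mice 1 to 3 there were 613 UMIs after VIP and 25 without it, a CPM ratio of 19.3 (95% counting interval 13.0 to 30.1). Such intervals pool the mice and cover counting error only, not the spread between mice. Within mice the ratio was 14.0, 11.5 and 59.0. The ratio of mouse 3 rests on 3 untreated UMIs and was given no bound of its own. The fitted log2 fold change was 4.17 (SE 0.28), or 3.69 to 4.50 when each mouse was left out in turn and 5.20 with only the first technical library of each culture. In whole organoids, more cells of a type and more RNA per cell cannot be told apart.

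A library in this experiment stood apart and bears on each value given for the whole organoids. For VIP-treated mouse 3, the library labelled technical replicate 2 held 2.04 CPM of Mucl3, within the 0.806 to 3.09 CPM of the 5 untreated libraries and below the 4.36 to 76.2 CPM of the other 7 VIP libraries. Its levels of Muc13 (300.4 CPM) and of the goblet cell gene Clca1 (52.3 CPM) also lay within the untreated ranges, and its level of the X-inactivation transcript Xist, 754.5 CPM, was above the 344.1 and 265.7 CPM of the other libraries of mouse 3. Without this library the Mucl3 ratio was 94.6 in mouse 3, again against 3 untreated UMIs, and 22.1 over the 3 mice, and the Vsig1 ratio over the 3 mice was 21.5.

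Vsig1, on chromosome X from 140907608 to 140939472, was nearly absent from untreated organoids. Untreated libraries held 0 and 0 UMIs in mouse 1, 1 and 1 in mouse 2, and 1 in mouse 3. VIP-treated libraries held 11 and 9 in mouse 1, 11 and 7 in mouse 2, 33 and 2 in mouse 3, and 4 and 2 in mouse 4. All VIP-treated cultures were above all untreated ones, at 1.10 to 5.53 CPM against 0 to 0.408 CPM, and again the share of genes so separated was not counted. With 73 UMIs against 3 over mice 1 to 3, the CPM ratio was 19.2, and its counting interval of 6.31 to 95.1 puts the lower bound of the pooled ratio, from counting error alone, at 6.31-fold. In mouse 1, whose untreated culture held none, the VIP-treated culture was at least 6.79-fold higher, taking 3 UMIs as the most that a count of 0 allows. With their untreated cultures also taken at 3 UMIs, mice 2 and 3 gave 4.69-fold and 6.86-fold. The log2 fold change of the fit was 4.03 (SE 0.60), or 3.42 to 5.05 when each mouse was left out in turn.

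**Figure D1:**
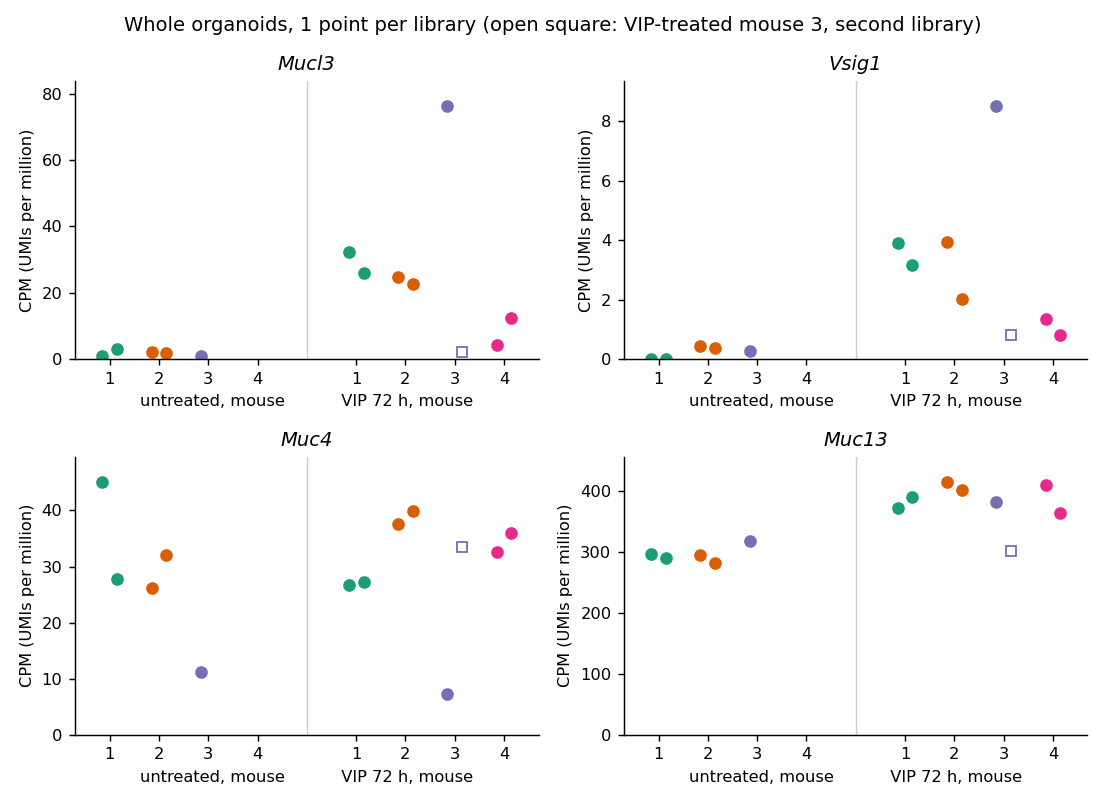
Level of 4 members in each whole-organoid library, in CPM on a linear axis, with untreated libraries left and VIP libraries right in each panel and the colour giving the mouse. The open square is the library of VIP-treated mouse 3 that stood apart, and it lies with the untreated libraries for Mucl3 at 2.04 CPM and Muc13 at 300.4 CPM.

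Muc13, the transmembrane mucin of chromosome 16 from 33794037 to 33819934 and a main glycocalyx mucin of the intestine, was well counted, with 663 to 1481 UMIs a library. Untreated cultures held 293.0, 287.8 and 317.2 CPM in mice 1 to 3, and VIP-treated cultures of the same mice held 380.2, 406.7 and 350.1 CPM. The groups did not overlap, since the VIP-treated cultures of 4 mice spanned 350.1 to 406.7 CPM. How many of all genes had groups apart in this way was not counted. The ratios within mice were 1.30, 1.41 and 1.10, and the log2 fold change was 0.33 (SE 0.10), or 0.38 without the library that stood apart. This difference is far smaller than those of Mucl3 and Vsig1.

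Muc4, which lies 1011645 bases before Muc13 on chromosome 16, from 32735886 to 32782391, and whose product can bind the receptor ErbB2, gave no common direction. Untreated cultures held 36.4, 29.4 and 11.3 CPM and VIP-treated cultures of the same mice 27.0, 38.8 and 17.4 CPM. The 2 groups overlapped over most of their range, and the log2 fold change of 0.13 (SE 0.17) became -0.09 without the library that stood apart. That library held 33.5 CPM of Muc4, while its companions from mouse 3 held 7.21 CPM with VIP and 11.3 CPM without. Muc1, a mucin of many glandular epithelia on chromosome 3 from 89229057 to 89233381, held 0 to 3 UMIs a library. Its sums over mice 1 to 3 were 6 UMIs with VIP and 5 without, a ratio of 0.946 (counting interval 0.240 to 3.92), and it did not pass the filter on low counts. The other 4 members passed it.

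On the opposite strand of Mucl3 lies Sfta2, a secreted surfactant-associated protein gene, and whether the counting used strand is not given in the sources used here. Sfta2 held 6 UMIs in the 3 untreated cultures and 35 in the 4 VIP-treated ones, beside 25 and 657 UMIs of Mucl3, and reads of overlapping genes cannot be told apart without strand. Muc20 overlaps Muc4 and held 2 UMIs in the untreated and 2 in the VIP-treated organoids, and Gm15657 overlaps Muc13 with 34 and 73.

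Several genes best known from the stomach surface epithelium rose in whole organoids along with Mucl3 and Vsig1, unlike Muc1 and Muc4. Of 18 gastric epithelium markers, 9 could be tested and 6 of these were higher with VIP. In edgeR 5 rose and none fell, with a median log2 fold change of 2.75 over the 9 against -0.0041 over all genes tested. This list and those below were chosen with earlier results of these data known, so their calls in whole organoids are a description. Genes near 0 in untreated cultures could meet the low-count filter through VIP-treated cultures alone, so the median over the 9 is a description as well. Gkn2, for example, held 0.537 to 1.63 CPM untreated. The 5 that rose were Gkn2 (log2 fold change 3.48, SE 0.42), Gkn1 (3.34, SE 0.33), Tff1 (3.04, SE 0.15), Psca (2.91, SE 0.22) and Anxa10 (2.75, SE 0.12). Gkn1 and Gkn2 are gastrokines secreted by surface mucous cells, Tff1 is the trefoil peptide of the same cells, Psca is a membrane-anchored surface antigen and Anxa10 an annexin of the gastric epithelium. Each was higher with VIP in 3 of 3 mice. Tff1 held 11.3, 10.6 and 6.98 CPM in the untreated cultures, and the VIP-treated cultures of 4 mice spanned 27.4 to 88.0 CPM. Among those that did not pass, Pgc, the pepsinogen C gene of chief cells, had a log2 fold change of 0.68 (adjusted p = 0.417, edgeR) and Atp4a, the proton pump of parietal cells, -0.45 (adjusted p = 0.612, edgeR). Gkn3, another gastrokine, did not pass either. In mice 1 to 3 it held 35.0, 29.2 and 39.8 CPM untreated and 30.2, 22.0 and 40.8 CPM with VIP. The library that stood apart held 6.95 CPM of Tff1, below the 6.98 to 12.9 CPM of the untreated libraries. Without the mouse as a block the adjusted p of edgeR was 0.0642 for Gkn1 and 0.150 for Gkn2, and the other 3 calls held.

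**Figure D2:**
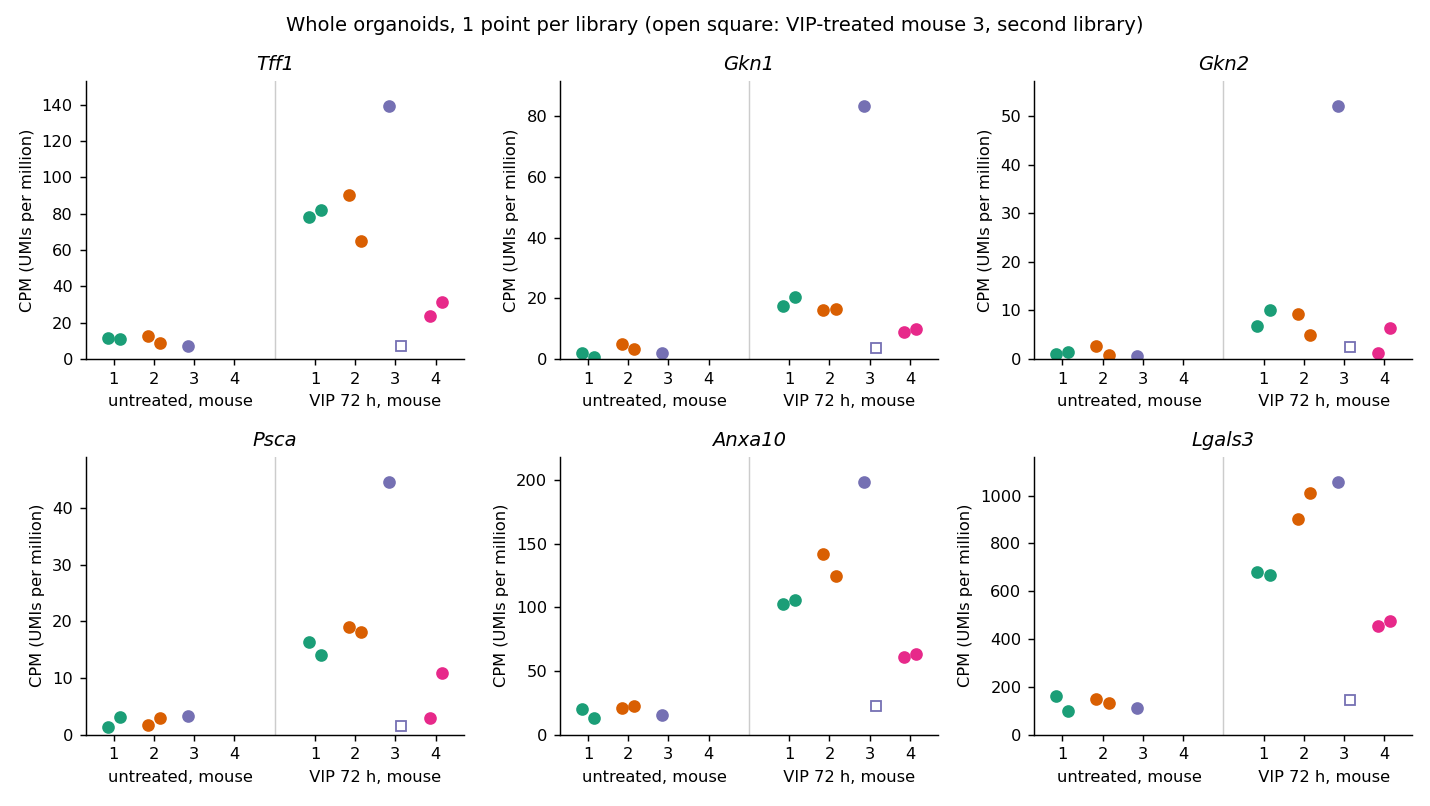
Level of the 5 gastric markers that rose and of Lgals3 in each whole-organoid library, in CPM on a linear axis, drawn as in the plot of the members. For Tff1 the VIP-treated cultures spanned 27.4 to 88.0 CPM, and the open square at 6.95 CPM lies with the untreated libraries.

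Other mucins and the enzymes that glycosylate them moved by smaller amounts. Of 19 other mucins, 4 could be tested in whole organoids and 3 rose: Muc3 (log2 fold change 1.67, SE 0.20), Muc2, the gel-forming mucin of goblet cells (0.66, SE 0.13), and Muc3a (0.66, SE 0.14). Muc3 and Muc3a are related in sequence, so how reads were split between them is uncertain. Of 25 enzymes of mucin-type O-glycosylation, 4 of 17 tested rose and none fell. The fucosyltransferase Fut2 changed most, by 1.64 (SE 0.26), followed by the branching enzyme Gcnt3 (0.62, SE 0.10), while Galnt3, which starts the chains, and B3gnt3, which extends them, both rose by 0.46. Lgals3, encoding galectin-3, a lectin that binds mucin glycans, was the only 1 of 11 shedding and ErbB partners to pass, with 463 to 961 CPM after VIP against 110 to 139 CPM without (log2 fold change 2.60, SE 0.10). None of 6 tested CTX family adhesion proteins, the relatives of Vsig1, passed the adjusted threshold in edgeR or DESeq2. An unadjusted p under 0.05 in edgeR was found for 2 of them and for 2090 of the 12727 genes tested. Without the mouse block the calls of Muc2, Muc3, Muc3a, Fut2, Gcnt3, Galnt3 and B3gnt3 were lost, with adjusted p of edgeR from 0.0601 for Gcnt3 to 0.641 for Muc2. With DESeq2 the adjusted p was 0.168 for Muc3a, 0.219 for Galnt3 and 0.162 for B3gnt3, and without mouse 1 the edgeR adjusted p of these genes was 0.181, 0.0514 and 0.141. Without mouse 2 it was 0.120 for Galnt3 and 0.221 for B3gnt3.

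Of 13 goblet cell markers, 9 rose with VIP in whole organoids and none fell, and their summed level was 7945 to 9536 CPM against 5589 to 6954 CPM. Paneth cell markers gave 0 of 11 calls in edgeR and in DESeq2, with 2 at an unadjusted p under 0.05, absorptive enterocyte markers 1 rise and 2 falls of 13, and stem cell markers 1 rise of 12. DESeq2 called 7 rises of goblet cell markers, 2 falls and no rise of enterocyte markers, and 0 of 12 stem cell markers, 4 of which had an unadjusted p under 0.05 in edgeR. Of all 12727 genes tested, 2090 had an unadjusted p under 0.05 in edgeR. Markers of mesenchymal and immune cells summed to 13.1 to 16.1 CPM in all cultures, and of 10 with a row 6 held a UMI in the untreated and 10 in the VIP-treated organoids. Their part in the differences of Mucl3 and Vsig1 was not tested.

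Mucl3 was hardly detected in Lgr5-EGFP+ cells. The first sorted experiment, with 2694586 UMIs in the 4 untreated and 2898180 in the 4 VIP-treated cultures, had no row for Mucl3, Vsig1 or Muc1, and 3 UMIs would correspond to 1.11 and 1.04 CPM over these groups. In the irradiation cohort Mucl3 held 2 UMIs in all, 1 each in the irradiated untreated cultures of mice 3 and 4. It held 0 of 5877473 UMIs in the non-irradiated VIP-treated cultures and 0 of 6683466 in the irradiated ones, which allow up to 0.510 and 0.449 CPM. The whole organoids given VIP for 72 h spanned 8.03 to 47.5 CPM. The experiments used other mice and other durations, so these levels are set side by side and were not tested against each other. Tff1 and Gkn2 were low in the cohort too, at 0 to 1.86 CPM and 0 to 3.53 CPM, but not every gastric marker was. Gkn1 held 4.40 to 7.21 CPM in the untreated, non-irradiated cultures of the cohort, beside 1.39 to 4.08 CPM in untreated whole organoids. The 15 gastric markers with a row summed to 96.9 to 157.7 CPM over the cohort groups, of which Gkn3 made up 73.6 to 128.5 CPM, while those of the whole organoids summed to 77.9 to 79.2 CPM untreated and 148.4 to 384.5 CPM with VIP. In the whole organoids Gkn3 held 29.2 to 39.8 CPM untreated and 22.0 to 40.8 CPM with VIP. None of the 4 gastric markers tested in the cohort passed the adjusted threshold of edgeR in any comparison, with at most 1 at an unadjusted p under 0.05. DESeq2 called none either, but gave none of them an adjusted p for VIP without irradiation. For VIP after irradiation Gkn1 was higher in 4 of 4 mice, at 4.26, 6.39, 24.7 and 8.62 CPM against 2.35, 3.88, 4.65 and 2.67 CPM (log2 fold change 1.53, SE 0.38, edgeR adjusted p = 0.112), and was named here after its values were seen.

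Vsig1 was detected in the irradiation cohort at a few UMIs a culture. In mice 1 to 4 the untreated cultures held 1, 1, 0 and 1 UMIs and the VIP-treated ones 0, 6, 3 and 2. After 6 Gy the untreated cultures held 3, 0, 1 and 2 and the VIP-treated ones 2, 2, 11 and 6. The sums were thus higher with VIP in both arms, although each pair of groups overlapped. Without irradiation 11 UMIs against 3 gave a CPM ratio of 4.08 (counting interval 1.08 to 22.8, lower bound 1.08-fold), and after irradiation 21 against 6 gave 2.99 (1.17 to 9.04). VIP-treated cultures were higher in 3 of 4 mice in each arm, with mouse 1 the exception in both. Vsig1 did not pass the filter on low counts, and in the edgeR fit of all genes with any count its adjusted p was 0.763 without and 1 with irradiation. Irradiation itself gave ratios of 2.29 (0.490 to 14.2) in untreated and 1.68 (0.774 to 3.86) in VIP-treated cells, whose intervals include no change. Counting intervals and limits cover counting error only, not the spread between mice. For VIP after irradiation the log2 ratio of 1.58 was 0.89 without mouse 3 and 2.40 without mouse 1, and without irradiation the log2 ratio of 2.03 was 1.44 without mouse 2 and 2.58 without mouse 1. For irradiation of VIP-treated cells the log2 ratio of 0.75 was 0.11 without mouse 3 and 1.67 without mouse 2, and for untreated cells that of 1.20 was 0.77 and 1.92.

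**Figure D3:**
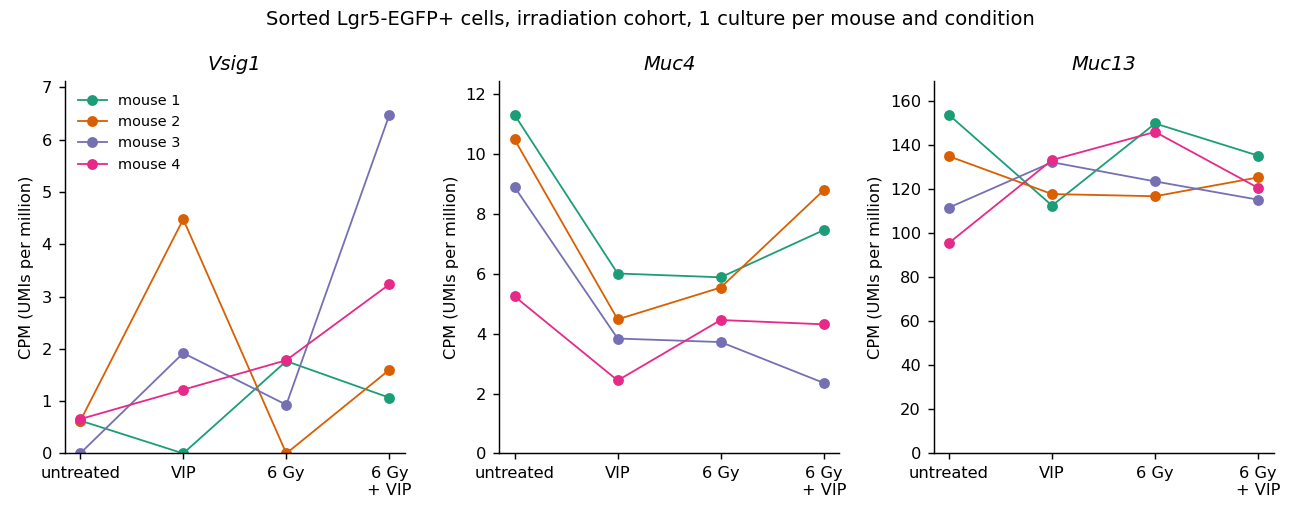
Level of Vsig1, Muc4 and Muc13 in the sorted cells of the irradiation cohort, in CPM on a linear axis, with a line joining the 4 cultures of each mouse. Muc4 is lower with VIP and lower after 6 Gy than in the untreated culture in 4 of 4 mice, while the Muc13 lines cross.

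Muc4 in the sorted cells had its highest mean, 8.98 CPM ± 2.69 (SD, n = 4), in the untreated, non-irradiated cultures of the cohort. These held 18, 17, 16 and 8 UMIs in mice 1 to 4, or 11.3, 10.5, 8.90 and 5.24 CPM. Cultures with VIP alone held 8, 6, 6 and 4 UMIs, or 6.01, 4.48, 3.84 and 2.44 CPM. Muc4 was lower with VIP in 4 of 4 mice, by ratios of 0.531, 0.427, 0.431 and 0.465, and the groups overlapped only in that mouse 4 untreated lay below mouse 1 with VIP. On the log2 scale the fit gave -1.10 (SE 0.33), and with an edgeR adjusted p of 0.116 it did not pass the threshold, and over the edgeR alternatives that p ranged from 0.115 to 0.320, while DESeq2 gave it no adjusted p.

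Markers of the cell types in the sorted fraction differed between the same cultures. With VIP and without irradiation, 12 stem cell markers summed to 5961 to 6410 CPM against 3990 to 5054 CPM untreated, 13 absorptive enterocyte markers to 796 to 1060 CPM against 1131 to 1606 CPM, and 11 Paneth cell markers to 9004 to 10283 CPM against 10521 to 15774 CPM. None of these pairs of ranges overlapped, and the share of all genes with such ranges was not counted. Sums of 13 goblet cell markers did overlap, at 5056 to 5545 CPM against 5491 to 8618 CPM. So did those of mesenchymal and immune markers, at 15.0 to 38.4 CPM against 21.6 to 32.0 CPM. In edgeR 2 of 10 tested enterocyte markers fell (median log2 fold change -0.53 over the 10). There 1 of 11 stem cell and 1 of 13 goblet cell markers rose, where 0.742% of 9976 genes passed. Of 11 Paneth cell markers 0 passed, and 7 had an unadjusted p under 0.05, as had 1237 of the 9976 genes tested. DESeq2 called 0 Paneth cell markers and gave 4 of them no adjusted p. The part of these cells in the values of Muc4, and of the sialyltransferase gene St3gal4 in the same cultures, was not tested.

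Irradiation of untreated cells gave Muc4 values on the same side. The irradiated cultures held 10, 10, 4 and 5 UMIs, again lower in 4 of 4 mice, by -0.89 on the log2 scale (SE 0.32, edgeR adjusted p = 0.128). Both comparisons use the same 4 untreated cultures and are not independent of each other. In irradiated cells, VIP-treated cultures held 14, 11, 4 and 8 UMIs and were higher in 2 of 4 mice, and the fit gave 0.20 (SE 0.35, edgeR adjusted p = 0.985). Irradiation of VIP-treated cells went the other way from that of untreated cells. Muc4 was higher in 3 of 4 mice, by 0.40 on the log2 scale (SE 0.36, edgeR adjusted p = 0.568). The difference between the VIP effects with and without irradiation was 1.30 on the log2 scale (SE 0.48), with an adjusted p of 0.687 in edgeR. In that interaction 0 of 9976 genes passed in edgeR, while 634 had an unadjusted p under 0.05 and DESeq2 called 3.

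In the first sorted experiment Muc4 was too thinly counted for the filter. Untreated cultures held 3, 16, 2 and 3 UMIs and VIP-treated ones 6, 3, 2 and 10. A single culture was high in each group, mouse 2 untreated at 18.5 CPM and mouse 4 with VIP at 15.8 CPM, and the others lay between 3.29 and 5.43 CPM. The sums of 24 and 21 UMIs gave a ratio of 0.814 (counting interval 0.431 to 1.53), whose log2 value turned from -0.30 to 0.83 without mouse 2.

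Muc13 was measured in all sorted cultures and gave no call. In the first sorted experiment untreated cultures of mice 1 to 4 held 145.1, 189.7, 129.9 and 141.5 CPM and VIP-treated ones 145.8, 146.0, 131.1 and 182.2 CPM. The log2 fold change was -0.03 (SE 0.15, interval -0.33 to 0.27, edgeR adjusted p = 0.993), where 0.0885% of 6778 genes passed. In the cohort the group ranges overlapped throughout, from 95.7 to 153.9 CPM untreated, 112.7 to 133.4 with VIP, 116.9 to 150.0 after 6 Gy and 115.3 to 135.3 with both. VIP gave log2 fold changes of 0.01 (interval -0.21 to 0.23) without and -0.13 (interval -0.35 to 0.09) with irradiation, and irradiation gave 0.11 in untreated and -0.02 in VIP-treated cells. The interval of the whole-organoid value, 0.14 to 0.53, overlaps those of both non-irradiated sorted comparisons and lies above that of the irradiated one. The cohort came from other mice and a shorter treatment, and these differences were not tested.

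**Figure D4:**
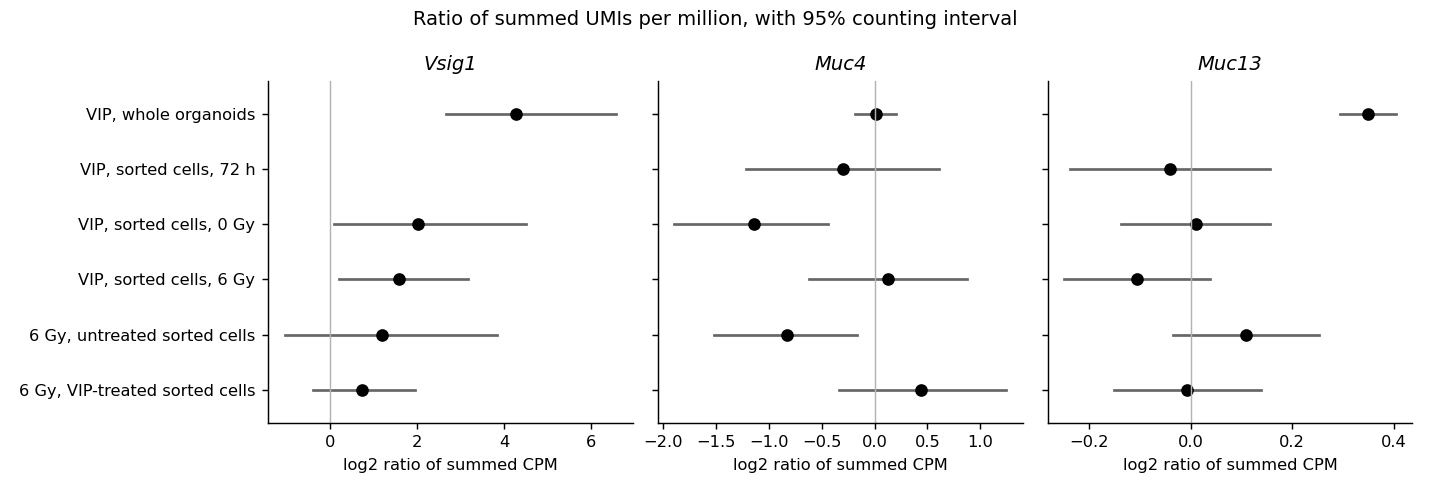
Log2 ratio of summed CPM for Vsig1, Muc4 and Muc13 in 6 comparisons, as points with 95% counting intervals that leave out the spread between mice; each panel has its own horizontal scale. The Vsig1 ratios in sorted cells given VIP, 4.08 and 2.99 before taking logs, lie below the 19.2 of whole organoids with overlapping intervals, and Vsig1 had no row in the 72 h sorted experiment.

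Of the members, 2 of 5 could be tested in the cohort, Muc4 and Muc13, and neither passed in any comparison. The shares of the 9976 tested genes that passed were 0.742% for VIP without irradiation, 0.221% for VIP after irradiation, 4.46% for irradiation of untreated cells and 7.78% for irradiation of VIP-treated cells. Muc1 held 4 UMIs in the whole cohort, 0 in the untreated, 1 in the VIP-treated, 2 in the irradiated and 1 in the irradiated VIP-treated cultures, and no fold is given where a group and its control are at or under 3 UMIs.

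A few genes of the same pathways did change in the sorted cells. St3gal4, a sialyltransferase that caps glycan chains, was the single 1 of 13 O-glycosylation enzymes called for VIP without irradiation, where 0.742% of 9976 genes passed. It held 50.9 to 66.9 CPM untreated and 14.6 to 29.3 CPM with VIP. These ranges did not overlap, and the share of all genes with such ranges was not counted. St3gal4 fell by 1.27 on the log2 scale (SE 0.24, edgeR adjusted p = 0.00746), though without mouse 4 the adjusted p was 0.0649. DESeq2 gave no adjusted p for any of these 13 enzymes in this comparison, so it neither kept nor lost the call. In the first sorted experiment 0 of the O-glycosylation, mucin, CTX, gastric and shedding genes tested passed in edgeR or DESeq2, and 0 had an unadjusted p under 0.05. Among all 6778 genes tested there, 373 had such a p in edgeR. With irradiation, Muc2 rose by 1.27 (SE 0.19) in untreated and 0.80 (SE 0.21) in VIP-treated cells. Mcam, an adhesion molecule also named MUC18, rose by 1.94 (SE 0.43) and 2.22 (SE 0.47). F11r, the junctional adhesion molecule JAM-A of the CTX family, rose by 0.47 (SE 0.09) and 0.41 (SE 0.09). Without mouse 4 the edgeR adjusted p was 0.0650 and 0.0576 for Mcam and 0.0560 and 0.0627 for F11r, without mouse 2 it was 0.209 for Mcam in untreated cells and 0.0747 for Muc2 in VIP-treated cells, and without mouse 3 it was 0.0566 for Muc2 in VIP-treated cells. Irradiation of VIP-treated cells also raised Lgals3 by 1.13 (SE 0.18) and Ctnnb1, encoding β-catenin, which binds the tail of Muc1, by 0.66 (SE 0.12), and neither gene passed in untreated cells or in the interaction. Galnt3 rose by 0.58 and Galnt12 fell by 0.35 there, calls that were lost in 4 and 8 of 11 alternatives, DESeq2 among them (adjusted p = 0.130 and 0.185).

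Other cell types' markers moved with irradiation in the sorted cells. Paneth cell markers rose in 10 of 11 in untreated and 11 of 11 in VIP-treated cells, and their summed level was 15746 to 28648 CPM after irradiation of untreated cells against 10521 to 15774 CPM. Goblet cell markers rose in 5 and 3 of 13, and 1 of 13 fell in VIP-treated cells. Absorptive enterocyte markers rose in 4 of 10 in untreated cells, where their summed level was 1409 to 3050 CPM against 1131 to 1606 CPM. In VIP-treated cells 0 of 10 passed in edgeR or DESeq2, although 10 of 10 were higher. An unadjusted p under 0.05 in edgeR was found for 3 of these and for 2167 of the 9976 genes tested. Stem cell markers fell in 2 and 3 of 11, with summed levels of 3055 to 3479 CPM against 3990 to 5054 CPM in untreated and 3729 to 4375 CPM against 5961 to 6410 CPM in VIP-treated cells. DESeq2 called 9 and 9 rises of Paneth, 4 and 3 of goblet and 2 and 0 of enterocyte markers, and 2 and 3 falls of stem cell markers. The 13 mesenchymal and immune markers with a row summed to 38.8 to 81.4 CPM after irradiation of untreated cells against 21.6 to 32.0 CPM, and to 32.3 to 56.7 CPM against 15.0 to 38.4 CPM in VIP-treated cells. The part of these cells in the values of Muc4, Muc2, Mcam and F11r was not tested.

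The genes whose levels ran closest to each member are given as a description, since few cultures enter and they share treatment and library. Over the 7 whole-organoid cultures Mucl3 ran closest to Tff1 (Pearson r of log2 CPM 0.993), Emp3 and Serpinb9b. Vsig1 ran closest to Dusp1 (0.993), Tspan6 and Fos. Muc13 followed Rras (0.992), Zfp36 and Aldh3a2, and Muc4 followed 9630010A21Rik (0.994), Zfp770 and Slc30a9. Over the 16 cohort cultures Muc4 ran closest to Svip (0.871), Tcea3 and Nol4l, and Muc13 to Clca1 (0.777), Zcchc17 and Zfp945.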

How the data were processed

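RNA of organoids or sorted cells was copied with barcoded primers carrying UMIs, and the 3′ ends were sequenced. The authors aligned the reads to GRCm38 and made UMI tables with the Drop-seq pipeline; the submitters' notes name the same build. The deposited values are raw counts of UMIs, and the authors did not normalise them. Here technical libraries of a culture were summed, so each mouse counted once. Counts were tested with edgeR 4.0.16 in R 4.3.3 (quasi-likelihood, TMM factors, filterByExpr, mouse as a block, two-sided) with Benjamini-Hochberg adjustment over all genes tested and a threshold of 0.05. The block rests on shared animals; deviations of same-mouse cultures correlated at 0.27 to 0.63 in whole organoids, 0.03 to 0.21 in the first sorted experiment and -0.07 to 0.16 in the cohort. Ratios of summed UMIs have exact 95% intervals, and a control at 0 was taken at 3 UMIs over the cultures compared. Scripts were tested on simulated data. Gene positions came from GENCODE M21 and promoters from RefSeq. Alternatives included DESeq2 1.42.0, other normalisations and filters, no block, and each mouse left out. Named genes were the 5 members, pathway-list genes past the threshold and the 3 genes most correlated with each member. The members and lists were chosen with earlier results of these data known. Untreated cultures are the background for each value.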

Additional observations from a re-analysis of the deposited data

Results flagged for a closer look

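In groups of 4 cultures, 25 groups with differing values were searched for a culture whose gap to its nearest neighbour was large against the range of the group. Chance flags about 1 in 20 such groups, and most flags rest on 1 to 3 UMIs.

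Muc4 had a high culture in both groups of the first sorted experiment, at 18.5 CPM in untreated mouse 2, where the others held 3.29 to 5.06 CPM, and at 15.8 CPM in VIP-treated mouse 4, where the others held 3.40 to 5.43 CPM. Vsig1 held 0 CPM in the untreated, non-irradiated culture of mouse 3 of the cohort, while the other 3 held 0.617 to 0.655 CPM, which is 1 UMI each. Muc1 was detected in a single culture of 3 cohort groups, at 0.751 CPM with VIP in mouse 1, at 1.78 CPM after irradiation in mouse 4 and at 0.588 CPM after irradiation with VIP in mouse 3.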

How the results depend on the processing

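Of 190 recomputed values of the members, 16 reversed direction. Reversals concerned small or thinly counted differences. The log2 fold change of Muc4 in whole organoids was -0.24 with first technical libraries only, -0.0894 without the second library of VIP-treated mouse 3 and -0.0392 to 0.476 leaving out a mouse, and the log2 ratio of Muc1 there was -0.338 to 0.424. In the first sorted experiment, leaving out a mouse gave -1.07 to 0.83 for Muc4 and -0.143 to 0.0736 for Muc13. For VIP without irradiation Muc13 was -0.0069 with all genes of any count, -0.0027 without the replicate block and -0.13 to 0.152 leaving out a mouse. For irradiation it was -0.0387 to 0.241 in untreated and -0.0874 to 0.0557 in VIP-treated cells leaving out a mouse, and in the latter 0.0013 with at least 10 counts in every sample and 0.0021 with only the 2 groups fitted. Its interaction was -0.286 to 0.0647 leaving out a mouse.

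Counts of called genes moved more. In whole organoids (614) they were 296 with DESeq2, 979 with any count, 99 without the replicate block, 1261 without the second library of VIP-treated mouse 3, and 363 to 1668 leaving out a mouse. In the first sorted experiment (6) they were 2 with DESeq2, 14 with library size only, 17 with any count, 11 with at least 10 counts, 1 without the block and 3 to 17 leaving out a mouse. For VIP without irradiation (74) they were 182 with any count, 34 without the block, 184 with 2 groups and 32 to 42 leaving out a mouse. For VIP after irradiation (22) they were 110, 12, 52 and 5 to 35 in the same order. For irradiation DESeq2 called 268 in untreated and 455 in VIP-treated cells, against 445 and 776, and leaving out a mouse gave 176 to 643 and 426 to 691. The interaction (0) gave 3 with DESeq2, 34 with any count and 0 to 1 leaving out a mouse. The cause was not tested. Recomputing the named pathway genes was added after the data were seen. Depth limits Mucl3, Vsig1 and Muc1 in sorted cells, where 3 UMIs over a group are 0.449 to 1.11 CPM.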
